A study of Mus musculus with 12 samples.

Results

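The 10 genes described here form 5 pairs of an autosomal retrogene and its X-linked parent, measured in isolated mouse germ cells. The retrogenes are Pgk2 (chromosome 17), Pdha2 (chromosome 3), Cetn1 (chromosome 18), Rpl10l (chromosome 12) and Cstf2t (chromosome 19), and their parents are Pgk1, Pdha1, Cetn2, Rpl10 and Cstf2. Members were taken as the probe sets whose gene symbol in the platform annotation is one of these 10, among 17004 gene symbols in all, and 18 probe sets carry such a symbol. Of these, 16 name a single gene and cover 9 of the 10 genes. The other 2 are annotated to Rpl10 together with Gm5621, a pseudogene on chromosome 9, so no value here belongs to Rpl10 alone, and it stays out of the counts of parents. All 10 genes exceeded the floor in 1 or more cell types.

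The study compared 4 germ cell types in the order of spermatogenesis, from type A and then type B spermatogonia (type A and type B cells) to pachytene spermatocytes (pachytene cells) and round spermatids. Total RNA of each was labelled by the one-cycle method, per the labels, and hybridised once to each of the Affymetrix designs U74Av2, U74Bv2 and U74Cv2, which carry different probe sets, giving 12 arrays. The labels give no strain, age, number of animals or isolation method, and they describe every array as a single sample. No difference between cell types therefore has a replicate error or a test, and precision is limited by having so few arrays. Values are scaled MAS5 signals in arbitrary units (MAS5 is Affymetrix software that turns the probes of a set into a single signal). Signals under a floor (between 50.01 and 50.03 units by design) were treated as not measured, so a ratio against such a signal is a bound. A gene was called at 4-fold, and levels are compared within a probe set only, since probe sets differ in how they bind.

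A retrogene arises when the messenger RNA of a gene is copied back into DNA and inserted elsewhere in the genome, usually without the introns of its parent. In male meiosis the X and Y chromosomes are transcriptionally silenced at the pachytene stage, and many autosomal retrogenes of X-linked housekeeping genes are expressed from that stage onward. The pairs here encode phosphoglycerate kinase, an ATP-producing enzyme of glycolysis (Pgk1, Pgk2), the E1 alpha subunit of the pyruvate dehydrogenase complex, which feeds pyruvate into the citric acid cycle (Pdha1, Pdha2), centrins, calcium-binding proteins of the centriole (Cetn1, Cetn2), a protein of the large ribosomal subunit (Rpl10, Rpl10l) and the RNA-binding subunit of the cleavage stimulation factor that acts in forming mRNA 3' ends (Cstf2, Cstf2t).

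The upstream sequences of 5 members are shown because a retrogene does not as a rule carry the promoter of its parent along. A link between these sequences and the signals was not tested. Each is the stretch of 250 bases before the annotated start, from RefSeq (GRCm38.p6), printed 5' to 3' on the strand of the gene. Capitals mark matches, on either strand, to the GC box GGGCGG, to the CCAAT box, to the core TATAAA of a TATA box and to the cyclic AMP response element TGACGTCA.
Pgk2, chr17:40208610-40208859, minus strand: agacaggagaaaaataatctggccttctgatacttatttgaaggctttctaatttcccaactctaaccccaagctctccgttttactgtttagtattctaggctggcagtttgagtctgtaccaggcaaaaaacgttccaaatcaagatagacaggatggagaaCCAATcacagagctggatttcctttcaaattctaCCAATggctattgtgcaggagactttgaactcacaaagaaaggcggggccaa
Pgk1, chrX:106186850-106187099, plus strand: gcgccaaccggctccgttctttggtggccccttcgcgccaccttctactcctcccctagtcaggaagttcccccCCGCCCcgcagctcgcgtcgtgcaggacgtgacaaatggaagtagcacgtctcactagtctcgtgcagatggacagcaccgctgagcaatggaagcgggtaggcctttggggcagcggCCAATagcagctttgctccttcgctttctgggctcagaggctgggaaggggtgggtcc
Pdha2, chr3:141212356-141212605, minus strand: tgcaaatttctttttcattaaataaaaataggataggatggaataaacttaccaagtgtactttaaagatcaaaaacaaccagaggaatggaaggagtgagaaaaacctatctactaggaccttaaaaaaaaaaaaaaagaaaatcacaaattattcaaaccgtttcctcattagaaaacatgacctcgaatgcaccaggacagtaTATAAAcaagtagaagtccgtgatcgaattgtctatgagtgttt
Pdha1, chrX:160138431-160138680, minus strand: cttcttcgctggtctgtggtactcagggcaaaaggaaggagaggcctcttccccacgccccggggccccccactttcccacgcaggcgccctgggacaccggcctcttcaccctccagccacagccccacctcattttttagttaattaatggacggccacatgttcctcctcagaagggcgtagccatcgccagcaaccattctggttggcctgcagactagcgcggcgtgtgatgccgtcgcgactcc
Cstf2t, chr19:31082591-31082840, plus strand: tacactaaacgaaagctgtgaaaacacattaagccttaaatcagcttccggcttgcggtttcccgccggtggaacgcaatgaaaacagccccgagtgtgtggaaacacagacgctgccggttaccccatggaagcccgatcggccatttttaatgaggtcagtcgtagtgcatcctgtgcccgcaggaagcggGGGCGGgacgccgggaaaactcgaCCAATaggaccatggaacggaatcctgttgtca

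These windows differ in CG dinucleotides, the sites of DNA methylation. The Pgk2 window holds 3 and the Pdha2 window 4, against 17 in the Pgk1 window and 15 in the Pdha1 window. The Rpl10l window holds 8, against 13 for Rpl10. Cstf2t departs from these 3 pairs, with 19 CG dinucleotides against 17 for Cstf2. Cetn2 has 16, and no sequence is given here for Cetn1. Among all 32851 promoters of the same length in the table, covering 27025 genes, the median is 6 and the quartiles are 2 and 16. The share of promoters with fewer CG dinucleotides is 29.0% for Pgk2, 37.8% for Pdha2, 57.0% for Rpl10l and 80.3% for Cstf2t, and lies between 68.5% and 76.5% for the 5 parents.

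**Figure D1:**
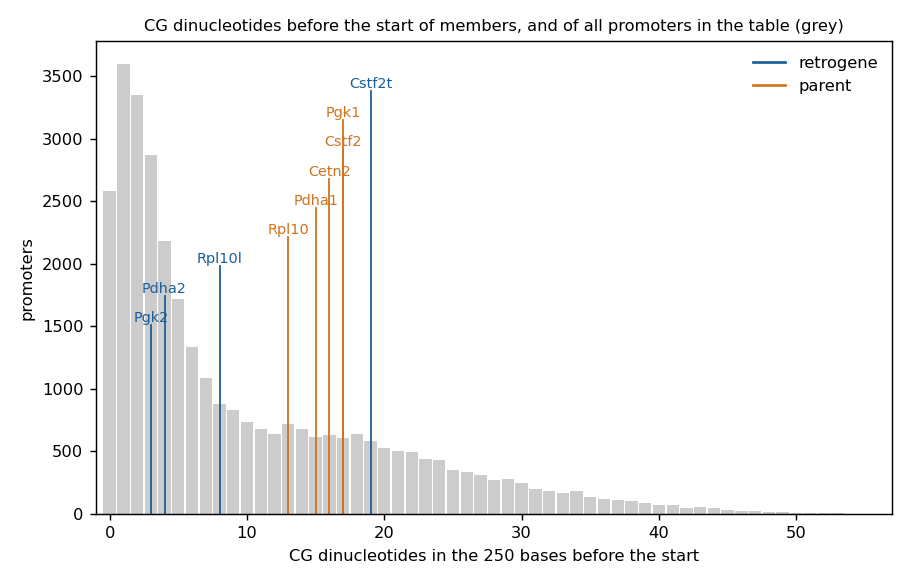
CG dinucleotides in the 250 bases before the start (horizontal axis) against the number of promoters (vertical axis, grey bars) for all 32851 promoters of the RefSeq table; lines mark 4 retrogenes (blue) and 5 parents (orange) and their heights only separate the labels. Pgk2 with 3 and Pdha2 with 4 lie under the median of 6 but within the quartiles of 2 and 16. The parents lie between 13 and 17, and Cstf2t has 19.

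Of the searched letters, GGGCGG stands in the windows of Rpl10l and Cstf2t and in those of Pgk1, Cetn2, Rpl10 and Cstf2, and 32.7% of all promoters hold it. CCAAT occurs in the windows of Pgk2, Cstf2t, Pgk1, Cetn2 and Rpl10 and in 33.8% of all promoters. In Pgk2 it begins at positions -86 and -52, counted back from the start. TATAAA was found among the members only for Pdha2, at position -44, and is held by 12.4% of all promoters. No member window holds TGACGTCA, which 1.55% of all promoters hold. A CCAAT match and a GGGCGG match of Rpl10 overlap. Such matches describe letters and show no bound factor.

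The retrogenes are described from type A cells to round spermatids. Pgk2 read 11.9 units in type A cells and 3.80 in type B cells, both under the floor, then 333 in pachytene cells and 2507 in round spermatids. Its signal was low in both spermatogonial types and highest in round spermatids. Relative to type B cells it was at least 6.66-fold higher in pachytene cells, and from there 7.52-fold higher in round spermatids, which makes at least 50.1-fold in round spermatids over type B cells.

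Pdha2, the testis form of the E1 alpha subunit, read 100 units in type A cells, 67.7 in type B cells, 1955 in pachytene cells and 1749 in round spermatids. Most of its difference lay at the entry into meiosis, where pachytene cells were 28.9-fold over type B cells. Round spermatids were then 1.12-fold lower than pachytene cells, a log2 ratio of -0.16. That is smaller than the technical spread at this step (SD 0.40, from the same control probe sets on the 3 designs). The technical spread rests on 23 control probe sets and, without replicates, does not cover variation between samples. It also leaves out differences between probe sets of a gene. At this step 27.7% of 4906 same-gene probe set pairs had ratios over 2-fold apart.

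For Cetn1, the centrin of male germ cells, the probe set 99995_at read 9.50 and 8.70 units in type A and type B cells, then 1841 in pachytene cells and 2020 in round spermatids. That is at least 36.8-fold in pachytene cells over type B cells, a bound that 0.80% of all genes reached. Cetn1 had 2 further probe sets on U74Cv2. The first of them, 171339_i_at, read 119, 126, 1919 and 1598 units over the 4 cell types in order, and was 15.2-fold higher in pachytene cells than in type B cells. With 166180_f_at, which read 26.5, 51.3, 264 and 229 units, the ratio was 5.14-fold, from a type B signal below the brightest negative control there (103.5). All 3 probe sets of Cetn1 thus gave the same direction, past 4-fold, with sizes that differed by several fold.

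Rpl10l, the testis paralog of the ribosomal protein gene, read 704 units in type A cells, 585 in type B cells, 5926 in pachytene cells and 3822 in round spermatids. Its signal exceeded the floor in all 4 cell types. Pachytene spermatocytes were 10.1-fold over type B cells and round spermatids 1.55-fold lower than pachytene cells. Rpl10l and Rpl10 are closely similar in coding sequence, and whether its single probe set also binds RNA of Rpl10 or its copies was not tested.

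Cstf2t, a retrogene needed for mouse spermatogenesis, had the smallest change of the 5 and a pachytene peak. Its probe set 104126_at read 176 units in type A cells, 130 in type B cells, 412 in pachytene cells and 111 in round spermatids. Pachytene spermatocytes were 3.16-fold over type B cells, short of 4-fold, and round spermatids were 3.71-fold lower than pachytene cells. A further probe set on U74Cv2, 170665_at, ran the other way, with 92.6, 133, 53.2 and 47.0 units over the 4 cell types in order, 2.50-fold lower in pachytene cells than in type B cells; its pachytene signal was below the brightest negative control there (61.2). The last, 170579_at, stayed between 7.70 and 34.5 units. The direction of Cstf2t therefore rests on the probe set chosen.

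The parents were read higher in spermatogonia. Pgk1, the phosphoglycerate kinase of most tissues, read 173 units in type A cells, 158 in type B cells, 43.9 in pachytene cells and 60.1 in round spermatids with 93346_at. Pachytene spermatocytes, under the floor, were at least 3.16-fold lower than type B cells, and round spermatids were 2.63-fold lower than type B cells. A second Pgk1 probe set, 164545_f_at, stayed under the floor with 4.20 to 29.2 units.

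Pdha1, the E1 alpha subunit of somatic cells, had 162 units in type A cells, 203 in type B cells, 19.0 in pachytene cells and 29.6 in round spermatids. It was at least 4.05-fold lower in both later cell types than in type B cells. Cstf2 had 306 units in type A cells, 253 in type B cells, 23.1 in pachytene cells and 64.1 in round spermatids with 104399_at. Its pachytene signal was at least 5.05-fold lower than in type B cells, and its round spermatid signal was 3.94-fold lower. With the other Cstf2 probe sets the picture was flatter: 166158_r_at read 99.4, 154, 102 and 108 units, 1.51-fold lower in pachytene cells than in type B cells, and 105599_at read 54.2, 27.6, 4.70 and 30.0 units, under the floor in all but type A cells, where it lay below the brightest negative control (55.1).

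Cetn2, the widely expressed centrin, read 71.7 units in type A cells, 72.3 in type B cells, 3.40 in pachytene cells and 52.5 in round spermatids. Its spermatogonial signal was only 1.45-fold over the floor, so no fold over 1.45 could be read for it, and its pachytene ratio is at least 1.45-fold lower. The 2 probe sets shared by Rpl10 and Gm5621 started from high signals. With 98342_at they were 3494 units in type A cells, 4315 in type B cells, 343 in pachytene cells and 444 in round spermatids, 12.6-fold lower in pachytene cells than in type B cells. The other, 161657_f_at, read 389, 612, 96.4 and 145 units and was 6.35-fold lower at the same step.

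**Figure D2:**
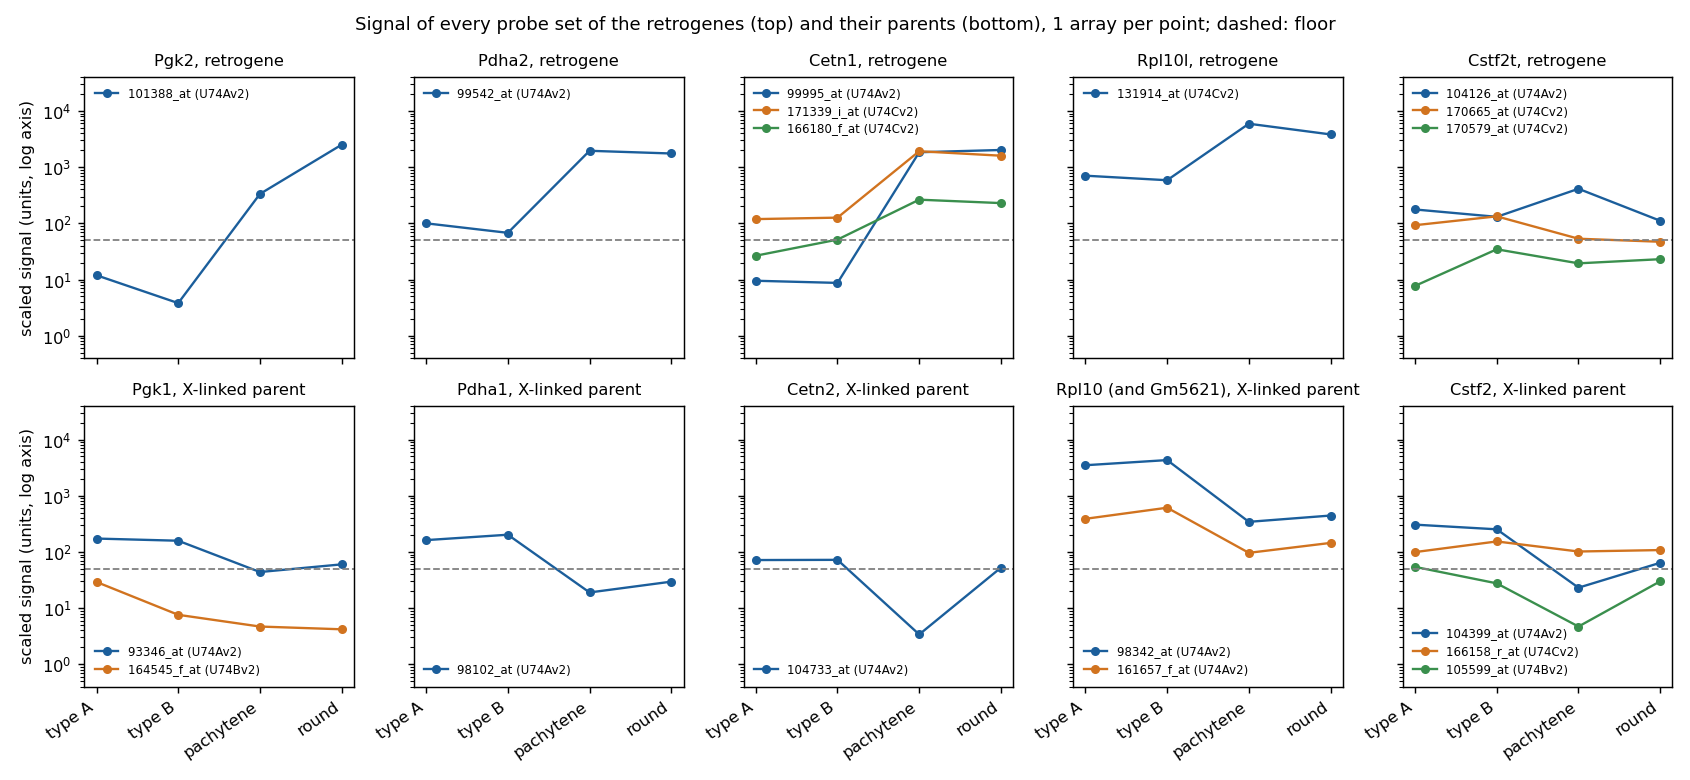
Scaled signal (log axis, arbitrary units) of every probe set of the 5 retrogenes (top row) and their parents (bottom row) in type A cells, type B cells, pachytene cells and round spermatids, with 1 array per point and the floor dashed; colours are different probe sets. Pgk2, Pdha2, Cetn1 and Rpl10l stand highest in pachytene cells or round spermatids, and the parents' highest probe sets in spermatogonia; the Cstf2t probe sets run in different directions.

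Between type B and type A cells none of the 5 retrogenes and none of the 4 parents with probe sets of their own was called. Across all 13003 genes that exceeded the floor in 1 or more cell types, 0.154% were 4-fold or more higher and 0.162% 4-fold or more lower in type B cells. Pgk2 and the Cetn1 probe set 99995_at were under the floor in both spermatogonial types and have no ratio; with 171339_i_at Cetn1 had a log2 ratio of 0.09. With their brightest probe sets the other members lay between a log2 ratio of -0.56 for Pdha2 and 0.32 for Pdha1, and Pdha1 turned to -0.50 under spike-in scaling. The sign differed by probe set for Cstf2 (-0.28 with 104399_at, 0.63 with 166158_r_at) and Cstf2t (-0.43 with 104126_at, 0.52 with 170665_at). The probe set 161657_f_at of Rpl10 and Gm5621 stood at 0.66. Here the technical spread of the controls is an SD of 0.23 and the 5th and 95th percentiles of all genes are -0.90 and 0.90. Of same-gene probe set pairs, 15.2% had ratios over 2-fold apart. At 2-fold, too, no member was called, beside 3.6% of all genes higher and 3.62% lower.

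The next comparison, of pachytene over type B cells, spans the entry into meiosis and separated the pairs. Of the 5 retrogenes 4 were 4-fold or more higher (Pgk2, Pdha2, Cetn1 and Rpl10l), against 7.46% of all genes, and none was lower. Of the 4 parents with probe sets of their own 2 were 4-fold or more lower (Pdha1 and Cstf2), against 5.14% of all genes, and none was higher. For Pgk1 and Cetn2 the floor allowed no fold past 3.16 and 1.45, so neither could be called lower. At 2-fold all 5 retrogenes were higher, beside 16.2% of all genes, and 3 parents lower, beside 21.9%. With the floor raised to 0.8 of the trimmed mean the bound of Pgk2 came to 1.74 on the log2 scale, under 4-fold, which left 3 retrogenes called. The median log2 ratio was 3.34 over the retrogenes and -1.84 over these parents, with bounds entered at their bound, and -0.21 over all genes. With type A in place of type B cells Pdha1 was no longer called. Its log2 ratio of -1.70 is then a bound, since its type A signal was only 3.24-fold over the floor. Scaling to the spike-in controls, which raised the median of all genes to 0.19, left none of the 4 parents called; Cetn2 was then under the floor in both cell types, and the other 3 stayed lower.

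Within each pair, with the probe set that represents each gene, the retrogene's change exceeded that of the parent. The log2 ratio of pachytene cells over type B cells was larger for Pgk2 than for Pgk1 by at least 4.40, for Pdha2 than for Pdha1 by at least 6.87, for Cetn1 than for Cetn2 by at least 5.73 and for Cstf2t than for Cstf2 by at least 4.0. For Rpl10l against the probe set of Rpl10 and Gm5621 the difference was 6.99, with all 4 signals over the floor. The median of these 5 differences was 5.73. On U74Cv2 the Cstf2t pair ran the other way, at -1.32 for Cstf2t with 170665_at and -0.59 for Cstf2 with 166158_r_at. Taking the mean over probe sets, which for Cstf2t leaves out 104126_at, turned its direction, to a log2 ratio of -0.66. The median difference was then 4.40.

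The last step, round spermatids over pachytene cells, split the retrogenes among themselves. Pgk2 alone was 4-fold or more higher, against 3.84% of all genes, and no retrogene was 4-fold or more lower, against 1.96% of all genes. The log2 ratios were 2.91 for Pgk2, 0.13 for Cetn1, -0.16 for Pdha2, -0.63 for Rpl10l and -1.89 for Cstf2t. Those of Cetn1 and Pdha2 were within the technical spread of 0.40, which covers control probe sets only. Cetn1 turned to -0.17 under quantile normalization and to -0.23 with the mean over probe sets, which leaves out its 99995_at. Under spike-in scaling Cstf2t was called lower at this step. Among the parents, Pgk1, Cetn2 and Cstf2 were back over the floor in round spermatids, at 60.1, 52.5 and 64.1 units, whereas Pdha1 was not; none was called. At 2-fold Pgk2 was higher, beside 9.07% of all genes, and Cstf2t lower, beside 11.8%.

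Over the whole span, from type B cells to round spermatids, 4 of the 5 retrogenes were 4-fold or more higher, against 9.07% of all genes, and 1 of the 4 parents, Pdha1, was 4-fold or more lower, against 6.83% of all genes. At 2-fold 4 retrogenes were higher, beside 16.4% of all genes, and 3 parents lower, beside 25.6%. This comparison shares its arrays with the others. Pdha2 was 25.8-fold, Cetn1 at least 40.4-fold and Rpl10l 6.53-fold higher in round spermatids than in type B cells. Cstf2t was 1.17-fold lower, a log2 ratio of -0.23 within the technical spread of the controls (SD 0.38). Its ratio turned to 0.30, 0.28 and 0.18 under the common median, spike-in and quantile scalings. Of same-gene probe set pairs, 39.9% had ratios over 2-fold apart in this comparison. The probe set 98342_at of Rpl10 and Gm5621 was 9.71-fold lower.

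**Figure D3:**
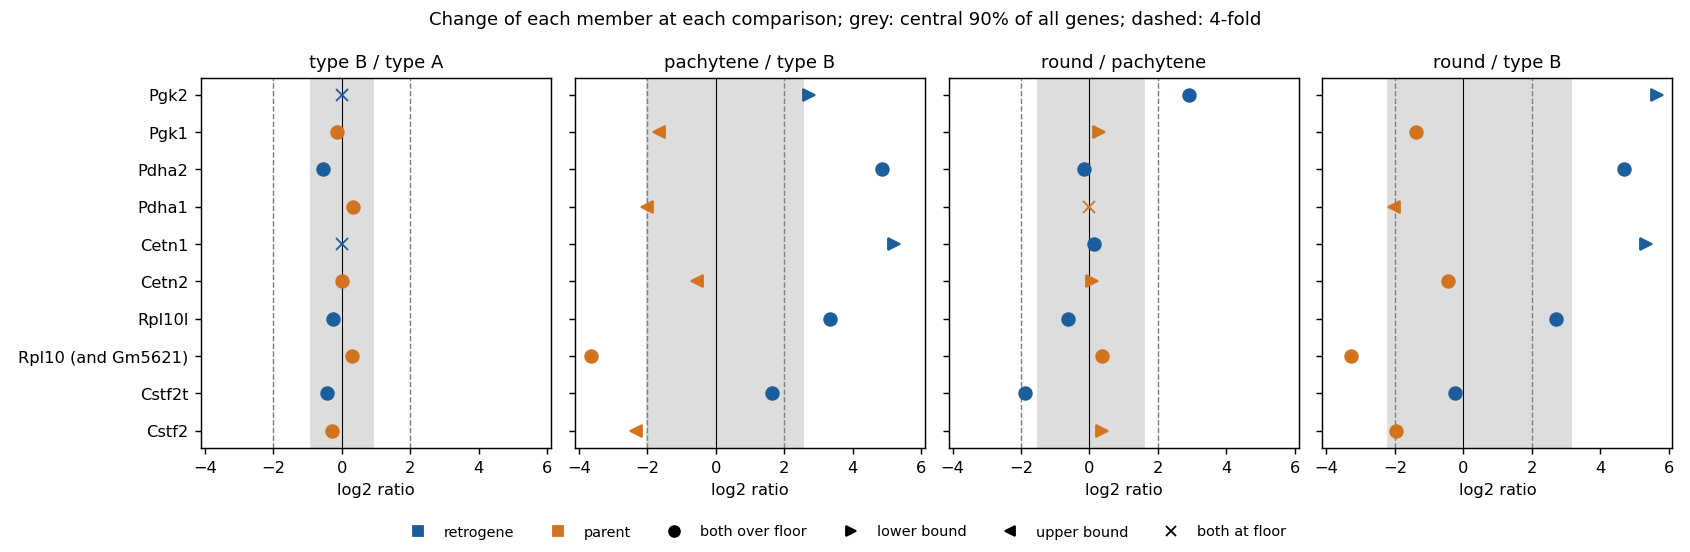
Log2 ratio (horizontal axis) of each retrogene (blue) and parent (orange) in 4 comparisons, with the later cell type over the earlier; triangles are bounds, crosses have both signals under the floor, dashed lines mark 4-fold and grey spans the 5th to the 95th percentile of all 13003 genes. At pachytene over type B the retrogenes lie between 1.66 and 5.20 and the parents between -3.65 and -0.53.

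The parents were set beside the other genes of the X chromosome. Of 394 X-linked genes that exceeded the floor in 1 or more cell types, 72 (18.3%) were 4-fold or more lower in pachytene cells than in type B cells, and 1 was 4-fold or more higher. Under spike-in scaling 26 X-linked genes were that much lower. Among 12552 autosomal genes 594 (4.73%) were 4-fold or more lower and 967 (7.70%) higher. The median log2 ratio was -0.99 over X-linked and -0.19 over autosomal genes. A signal under the floor entered 205 of the 394 X-linked and 3705 of the 12552 autosomal ratios, so these shares and medians are limited by the floor. In round spermatids over type B cells 68 X-linked genes (17.3%) were 4-fold or more lower and 16 (4.06%) higher. The 4 parents with probe sets of their own are among these X-linked genes, and Rpl10 is not. At the step to round spermatids 20 X-linked genes (5.08%) were 4-fold or more higher than in pachytene cells, beside 476 autosomal genes (3.79%), and no parent was among them.

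**Figure D4:**
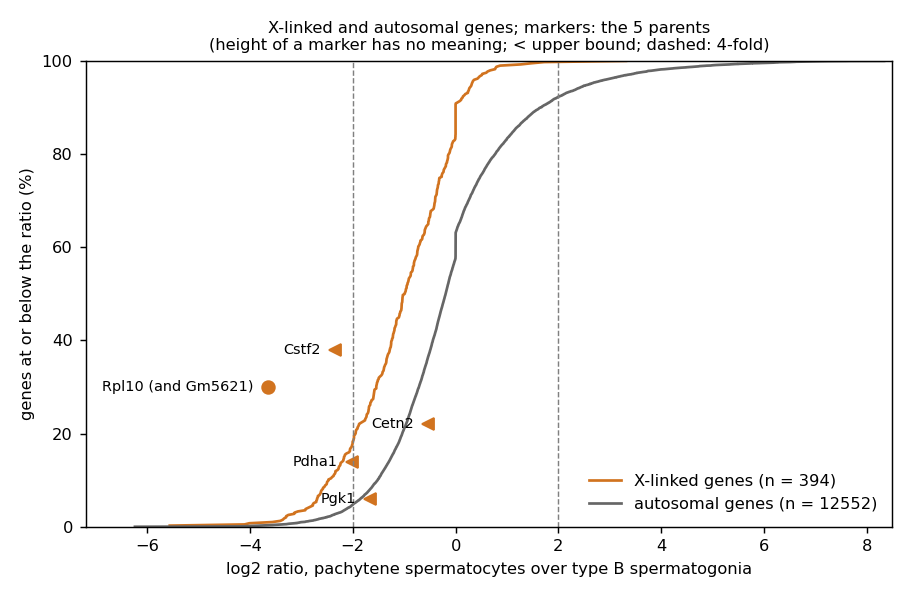
Cumulative share of genes (vertical axis, percent) by log2 ratio of pachytene cells over type B cells (horizontal axis) for 394 X-linked and 12552 autosomal genes; markers show the 5 parents, with triangles for bounds and a height without meaning. The X-linked curve lies left of the autosomal one, with medians of -0.99 and -0.19.

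Among other pairs of X-linked parents and autosomal retrogenes, the retrogenes gave a mixed picture and most parents were too near the floor to be followed. Of 11 further retrogenes 6 had a probe set of their own over the floor, and 2 of these 6 were 4-fold or more higher in pachytene cells than in type B cells, with a median log2 ratio of 1.09. Fam50b read 26.7, 20.3, 1105 and 1151 units over the 4 cell types in order and was at least 22.1-fold higher at this step. Rpl39l, a testis paralog of a ribosomal protein gene, read 230, 365, 1862 and 3688 units and was 5.10-fold higher. Timm8a2, with 113 units in pachytene cells, was at least 2.26-fold higher, and Gk2, the glycerol kinase retrogene, was 1.99-fold higher. G6pd2, the retrogene of glucose-6-phosphate dehydrogenase, rose only at the next step, to 333 units in round spermatids, at least 6.65-fold over pachytene cells. Of 11 further parents 6 had a probe set of their own over the floor in some cell type. None was called at the entry into meiosis, with a median of -0.45. For 5 of these 6 a signal under the floor entered the ratio, Nkap being under it in both cell types. Among those 5 the floor allowed no fold past the 3.23 of Fam50a, so a 4-fold call was not possible for them. Fam50a was at least 3.23-fold, Zfx at least 1.66-fold, Timm8a1 at least 1.62-fold and Rbmx 1.16-fold lower. Fam50a had 21.2 units in pachytene cells and 162 in type B cells, so it was low where Fam50b was high.

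The enzymes around the members' steps were followed in pachytene cells over type B cells, where 7.46% of all genes were called higher and 5.14% lower; the counts in these lists are small and are read against those shares. In glycolysis, 4 of the 6 measured sperm genes were 4-fold or more higher and none lower, the median log2 ratio being 4.24. The sperm lactate dehydrogenase genes Ldhal6b and Ldhc were at least 307-fold and at least 174-fold, the phosphoglycerate mutase gene Pgam2 at least 42.6-fold and Gapdhs, the sperm glyceraldehyde phosphate dehydrogenase, 8.37-fold higher. Gapdhs went on to 8146 units in round spermatids, 13.2-fold over pachytene cells, a later climb as seen for Pgk2. So did Aldoart2, an aldolase retrogene, with 1124 units in round spermatids and 79.3 in pachytene cells. Of 12 general glycolysis genes 3 were 4-fold or more higher and 2 lower, with a median of -1.18; Ldha was 10.2-fold, Pfkp at least 6.13-fold and Pfkm 5.58-fold higher and the hexokinase gene Hk1 4.44-fold lower.

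In the pyruvate dehydrogenase complex and its control, none of 12 measured genes was 4-fold or more higher and 1 was lower, with a median of -0.90. That gene, Pdk3, encodes an inhibitory kinase of the complex and is itself X-linked. It read 984, 789, 142 and 1485 units over the 4 cell types in order, 5.57-fold lower in pachytene cells than in type B cells and then 10.5-fold higher in round spermatids than in pachytene cells. Pdp1, a phosphatase that activates the complex, had the same shape, with 236, 189, 28.8 and 201 units. Pdpr, its regulatory subunit, was 3.84-fold lower in pachytene cells, and Dlat, the E2 subunit, was 3.62-fold higher.

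Among 10 centrins and their partners Cetn4 was the only gene past 4-fold at the entry into meiosis. It read 28.8, 16.3, 3754 and 4570 units, at least 75.1-fold higher in pachytene cells than in type B cells, beside 2.55-fold for Cetn3. Poc5, a centrin partner of the centriole, was 2.30-fold higher and Sfi1, another partner, 3.45-fold lower. The list median was 0.48.

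Of 44 genes of the large ribosomal subunit only 16 had a probe set of their own over the floor. Of these 16 genes 2 were 4-fold or more lower in pachytene cells and none was higher, with a median of -0.74. Among the 16, Rpl22, Rpl27, Rpl37 and Rpl38 read 77.9, 65.7, 63.4 and 54.6 units in type B cells. That is too near the floor for a 4-fold lower signal to be read. Rpl10a was 5.17-fold and Rpl13a at least 4.31-fold lower, and Rpl19 and Rplp2 were 3.92-fold and 3.23-fold lower. Of the 16 ratios 4 are bounds set by the floor, so their order is not determined. The mRNA 3' end processing list had 2 of 20 genes 4-fold or more higher, none lower and a median of -0.02. The 2 are 10% of the list, close to the 7.46% of all genes. Papolb, the poly(A) polymerase of male germ cells, was at least 11.6-fold and the poly(A)-binding protein gene Pabpc1 4.53-fold higher. Cstf1, which encodes another subunit of the cleavage stimulation factor, was 3.17-fold and Clp1, of the cleavage complex, 2.89-fold higher.

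**Figure D5:**
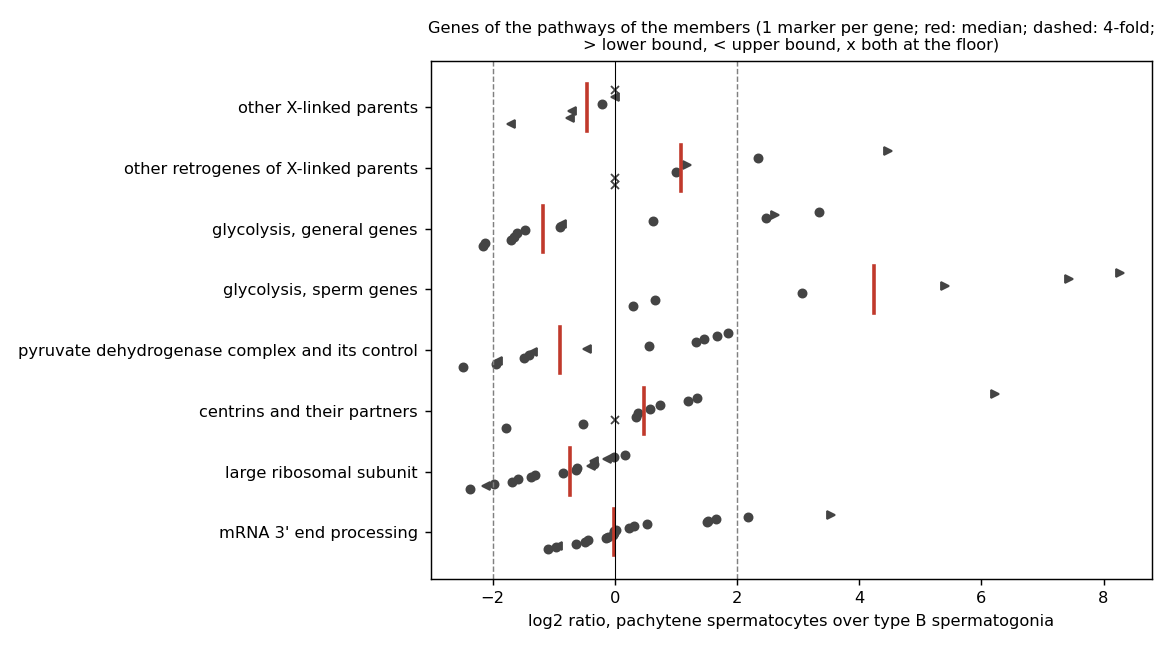
Log2 ratio of pachytene cells over type B cells (horizontal axis) for the measured genes of 8 lists around the members, 1 marker per gene, with triangles for bounds, crosses for genes under the floor in both cell types, a red line for the list median and dashed lines at 4-fold. The median is 4.24 for the sperm genes of glycolysis and -1.18 for its general genes.

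Genes with the profile most like a member were sought on the same design, by the root mean square distance between log2 profiles over the 4 cell types, each centred on its own mean. Nearest to Pgk2 was Slc16a7, a monocarboxylate transporter, with 2.10, 3.20, 303 and 2334 units and a distance of 0.06, followed at a distance by Gsg1 (0.38) and Prss39 (0.40). Only 1 of 3205 genes compared lay within 0.25 of Pgk2. The nearest genes to Cetn1 were the acrosin gene Acr (0.08), Syngr4 (0.20) and Phf7 (0.22), with 7 genes within 0.25. For Pdha2 they were Ybx3 (0.10), the cytochrome oxidase subunit gene Cox6b2 (0.16) and Ddx25 (0.18), with 8 within 0.25. Rpl10l had Csl (0.06), Wfdc15a (0.08) and Trim37 (0.09) nearest, with 15 of 2429 within 0.25. Cstf2t had Crebrf (0.06), Tra2b (0.07) and Kpnb1 (0.08), each highest in pachytene cells, with 47 within 0.25.

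These distances are between floored profiles. Pgk2 and Cetn1 were under the floor in both spermatogonial types, and so were their nearest genes, Slc16a7 and Acr. The distances of Slc16a7 and Acr therefore rest on the pachytene and round spermatid signals. Pgk1, Pdha1, Cetn2 and Cstf2 were at the floor in pachytene cells, which shortens their profiles, so their counts of near genes are not set against those of the retrogenes. Within 0.25 lay 173 genes for Pgk1, 141 for Pdha1, 221 for Cetn2, 110 for Cstf2 and 23 for the shared probe set of Rpl10. Nearest were Rnf4, Midn and Siva1 to Pgk1, Tspan9, Mfap4 and Tspan4 to Pdha1, and Cox6a1, Psmg4 and Ccna2 to Cetn2. Crabp1, Nfix and Caprin2 were nearest to Cstf2, and Errfi1, Zfp36l1 and Ltbp4 to the shared probe set. None of these 15 genes is X-linked, but only 394 of all 13003 genes over the floor are. This therefore says nothing about likeness to X-linked genes.

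The labels were checked against marker genes. The summed signal of 9 spermatogonial markers was 8267 and 8338 units in type A and type B cells, 1058 in pachytene cells and 2570 in round spermatids. That of 9 pachytene markers was 1530, 1338, 37198 and 35805 units in the same order, and that of 10 round spermatid markers 333, 381, 2768 and 37621. A few bright genes carry these sums, such as Hspa2 with 12268 units and Ldhc with 8691 in pachytene cells. In the same order 9, 9, 6 and 8 of the spermatogonial markers were over the floor. For the pachytene markers these counts were 5, 5, 9 and 8, and for the spermatid markers 2, 2, 7 and 9. The spermatogonial marker Sall4 read 248, 647, 96.8 and 588 units, higher in round spermatids than in type A cells. Gfra1 read 136, 61.9, 50.6 and 66.9 units, slightly higher in round spermatids than in type B cells. Of the synaptonemal complex genes, Sycp3 read only 60.4 units in pachytene cells, and Sycp1 went against the label, with 368, 319, 220 and 454 units over the 4 cell types in order. Among the spermatid markers Spaca1 did so too, with 57.7, 60.4, 38.1 and 20.5 units, and Crem read 58.9 in round spermatids and 90.6 in pachytene cells. Markers of other testis cells differed too. The sum of 11 myoid and fibroblast markers was 7270 units in type A cells, 14935 in type B cells, 602 in pachytene cells and 715 in round spermatids, with 10, 11, 5 and 3 of them over the floor. The defining collagen genes Col1a1, Col1a2 and Col3a1 were under the floor in both later cell types. For 10 Sertoli cell markers the sums were 5699, 4453, 3475 and 1667 units with 9, 9, 8 and 5 over the floor, and Amh under it in all 4. For 7 Leydig cell markers they were 485, 863, 809 and 236 with 5, 6, 4 and 1 over the floor, and for 10 leukocyte markers 1310, 1886, 531 and 643 with 6, 8, 3 and 4, Ptprc being under the floor in all 4. The part of RNA from such cells in the spermatogonial signals of the parents was not tested. In isolated fractions a change in the share of cells and a change in RNA per cell cannot be told apart.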

How the data were processed

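RNA of 4 germ cell types was measured on 3 array designs. The authors deposited linear intensity signals, 1 per probe set; the submitters' processing notes name MAS5, its version being not given in the sources used here. Each array's 2% trimmed mean lay between 125.0 and 125.1, and the floor between 50.01 and 50.03 units.

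Every array was brought to a common trimmed mean (the geometric mean within its design), floored at 0.4 of that mean and put on the log2 scale (Python 3.11.15, pandas 2.3.3). Of 228 negative control readings 22 exceeded the floor. Among 36701 probe sets other than controls, 29131 carried a single symbol, 724 more than 1 and 6846 none; 29044 matched RefSeq by Entrez identifier. A gene with several probe sets is represented by the brightest on average. Calling was tested on simulated data, with changes planted only in genes of a single probe set whose type B signal was well over the floor. Members with low type B signals or differing probe sets are not covered by it. Named genes were the members, up to 4 genes of a list with the largest ratio at the step described, and the 3 nearest profiles per member among genes of at least 4 floors; the marker genes were named after their values were seen. The members and lists were chosen with earlier results of these data known. Alternatives were other scalings, floors, probe set rules, a 2-fold call and type A as the base. The mean over probe sets was taken only within the design that holds most probe sets of a gene, or the first design where tied.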

Additional observations from a re-analysis of the deposited data

How the results depend on the processing

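At the entry into meiosis Pgk2, Pdha2, Cetn1 and Rpl10l were higher under every alternative in which they were measured. Their 4-fold calls held too, except that of Pgk2 with the floor at 0.8; Rpl10l has no probe set on U74Av2. Cstf2t joined them under the common median, under spike-in scaling and at 2-fold. Among members and pairs that differed by at least 2-fold, 1 value changed sign, that of Cstf2t at this step, to -0.66 with the mean over probe sets. For Cstf2t that mean covers only 170665_at and 170579_at, on U74Cv2, and leaves out 104126_at. Why these probe sets differ was not tested. Smaller ratios, which have no settled sign, changed sign in other settings too. The 4-fold calls of parents changed with the scaling, the floor and the base. With the floor at 0.8, none of the 4 parents had a type B signal 4-fold over it, so none could be called lower. With type A as base the signal of Pdha1 was 3.24-fold over the floor, so a 4-fold call was not possible for it. For the scaling the cause was not tested. No paired analysis was possible because each cell type has 1 array per design. Signals near the negative controls limit what a ratio can show, also where they exceed the floor.

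At pachytene over type B, 2 parents were called lower: 1 under the common median, quantile normalization and type A as base, and 0 under spike-in scaling and the floor at 0.8. In round spermatids over type B 1 was called lower: 0 under the common median, spike-in, quantile and 0.8 floor settings, and 3 at 2-fold. In round spermatids over pachytene 0 retrogenes were called lower, but 1 under spike-in scaling and at 2-fold, and 0 parents higher, but 1 with no floor.

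The median pair difference at pachytene over type B was 5.73, and 4.62 under spike-in scaling, 6.99 and 4.20 with the floor at 0.2 and 0.8, 8.27 with no floor, 4.40 with the mean over probe sets and 5.07 on U74Av2 only. In round spermatids over type B it was 5.99, and 5.39 under quantile normalization and with the mean over probe sets, 6.80 and 5.15 with the floor at 0.2 and 0.8, and 7.47 with no floor.

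X-linked genes called lower at pachytene over type B numbered 72, and 42 under the common median, 26 under spike-in scaling, 36 with the floor at 0.8, 167 with no floor, 44 on U74Av2 only and 196 at 2-fold. In round spermatids over type B they numbered 68, and 34, 27, 32, 148, 32 and 175 in these settings, with 44 for the mean over probe sets.

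Over all genes at pachytene over type B, 970 were higher, and 1532 under spike-in scaling, 331 on U74Av2 only and 2105 at 2-fold; 668 were lower, and 339 under the common median, 250 under spike-in scaling, 1056, 327 and 1796 with the floor at 0.2, at 0.8 and absent, 427 with the mean over probe sets, 347 on U74Av2 only and 2854 at 2-fold. At round over pachytene 499 were higher, and 1034 with no floor, 140 on U74Av2 only and 1180 at 2-fold; 255 were lower, and 383, 149 and 756 over the floors, 159 with the mean, 78 on U74Av2 only and 1537 at 2-fold. At round over type B 1180 were higher, and 399 on U74Av2 only and 2133 at 2-fold; 888 were lower, and 434 under the common median, 388 under spike-in scaling, 1344, 450 and 2077 over the floors, 522 with the mean, 430 on U74Av2 only and 3332 at 2-fold. At type B over type A 20 were higher, and 9 under the common median, 2 under spike-in scaling, 65, 6 and 420 over the floors, 10 with the mean, 11 without special endings, 5 on U74Av2 only and 468 at 2-fold; 21 were lower, and 155 under spike-in scaling, 34 under quantile normalization, 62, 7 and 281 over the floors, 9 with the mean, 12 without special endings, 0 on U74Av2 only and 471 at 2-fold.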
